A study of Mus musculus with 12 samples.

Results

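Ms4a3 and 8 genes whose proteins fill the granules of developing granulocytes (Prtn3, Ctsg, Mpo, Elane, Ngp, Camp, Ltf and Chil3) were followed in the olfactory epithelium of mice. A probe set was taken where the array's annotation gave its gene as 1 of these 9 symbols or an older alias, such as Ela2 for Elane, Cnlp for Camp or Chi3l3 for Chil3. Each gene had 1 probe set of its own, so the 9 are 9 of 18193 genes on the array and 9 of the 13628 that passed a filter on dim probe sets. One further probe set is shared by Chil3 and Chil4 and is described separately. Ms4a3 was picked because it was higher in mice given clodronate liposomes, and the other 8 were picked to go with it, so the values of that comparison are given as a description, with no p-value, and the counts past the threshold there support nothing.

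Granulocyte precursors in the bone marrow make their granules in waves. Promyelocytes fill the primary (azurophil) granules with myeloperoxidase and serine proteases, and myelocytes and metamyelocytes then fill the secondary (specific) granules with lactoferrin and antimicrobial peptides. These genes are transcribed before the granulocyte leaves the marrow, and the transcripts of the primary granule proteins are largely gone from the mature neutrophil. In the nose, lactoferrin is also a secretory product of glands, and chitinase-like proteins are made by macrophages and epithelium.

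The mice were male C57BL/6J wild types of 6 weeks. The 4 groups, of 3 arrays each, were Lip-C with OBX, Lip-C with sham surgery, Lip-O with OBX and Lip-O with sham surgery. Lip-C is liposomes loaded with clodronate, a drug that kills the phagocytes that take the liposomes up, and Lip-O is the same treatment with empty liposomes. All mice, controls included, were anesthetized and received 50 µl of liposomes into the nose on consecutive days and 200 µl into a tail vein. OBX is surgical removal of both olfactory bulbs, which cuts the axons of the olfactory sensory neurons, and tissue was taken 48 h after OBX or the sham operation. The clodronate was given to remove macrophages of the epithelium and a subset of blood monocytes. The labels call the arrays of a group biological replicates but do not say whether each held RNA of 1 mouse or several.

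The microdissected tissue carried its defining transcripts: all 11 olfactory epithelium markers passed the filter, with summed signals of 75577 to 86373 in Lip-C OBX, 89484 to 93856 in Lip-C sham, 66948 to 84169 in Lip-O OBX and 89486 to 100334 in Lip-O sham arrays. The array medians lay between 117.5 and 134.2 in the arbitrary units of the deposited signal. Macrophage markers were present in every group, and Cd68 averaged 990 ± 128 in Lip-C OBX, 351 ± 59.6 in Lip-C sham, 986 ± 328 in Lip-O OBX and 426 ± 126 in Lip-O sham arrays (SD, n = 3). For the granule genes, 2 arrays stood apart within their groups. Lip-O sham replicate 1 was the lowest of its group for Ms4a3, the 4 primary granule genes, Ngp and Camp, and Lip-C OBX replicate 3 was the lowest of its group for all 9 genes.

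The promoters of 6 of the genes are shown. They are those of the 4 primary granule genes, which all hold AGGAAGT, and of Ms4a3 and the secretory Ltf, which do not hold it in these windows. Of the genes not shown, Chil3 holds it and does not follow the primary granule genes from array to array. Ngp and Camp follow them and do not hold it. Whether these letters bear on the signals was not tested. Each is the 250 bases before the RefSeq start of the gene, 5′ to 3′ on the gene's strand, in build GRCm38.p6. All 9 genes were matched in the promoter table. The positions are chr19:11640852-11641101 on the minus strand for Ms4a3, chr10:79879417-79879666 on the plus strand for Prtn3, chr10:79886062-79886311 on the plus strand for Elane, chr11:87793534-87793783 on the plus strand for Mpo, chr14:56102575-56102824 on the minus strand for Ctsg and chr9:111019042-111019291 on the plus strand for Ltf. Capitals mark AGGAAGT, a form of the site of the myeloid factor PU.1, AACGG, a core site of MYB, and GCAAT, a short form of the C/EBP site, each searched on both strands, so that ATTGC is a GCAAT of the other strand.
Ms4a3: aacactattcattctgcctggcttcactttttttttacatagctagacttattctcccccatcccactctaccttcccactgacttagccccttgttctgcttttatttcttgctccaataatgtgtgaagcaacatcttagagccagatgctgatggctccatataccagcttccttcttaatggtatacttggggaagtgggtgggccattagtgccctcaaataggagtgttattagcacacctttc
Prtn3: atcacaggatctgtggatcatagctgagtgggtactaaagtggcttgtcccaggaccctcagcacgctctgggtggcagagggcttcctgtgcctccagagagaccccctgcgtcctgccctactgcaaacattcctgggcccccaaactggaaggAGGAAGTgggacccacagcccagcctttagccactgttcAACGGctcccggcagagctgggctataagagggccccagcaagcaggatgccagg
Elane: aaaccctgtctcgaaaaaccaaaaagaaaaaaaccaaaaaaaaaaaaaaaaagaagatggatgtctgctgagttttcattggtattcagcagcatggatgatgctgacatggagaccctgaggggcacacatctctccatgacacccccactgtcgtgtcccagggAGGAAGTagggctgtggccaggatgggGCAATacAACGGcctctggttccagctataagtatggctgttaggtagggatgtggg
Mpo: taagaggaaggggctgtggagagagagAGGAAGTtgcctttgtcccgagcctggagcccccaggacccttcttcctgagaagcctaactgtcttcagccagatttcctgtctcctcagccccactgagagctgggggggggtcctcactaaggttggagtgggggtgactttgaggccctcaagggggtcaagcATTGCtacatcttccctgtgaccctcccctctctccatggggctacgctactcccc
Ctsg: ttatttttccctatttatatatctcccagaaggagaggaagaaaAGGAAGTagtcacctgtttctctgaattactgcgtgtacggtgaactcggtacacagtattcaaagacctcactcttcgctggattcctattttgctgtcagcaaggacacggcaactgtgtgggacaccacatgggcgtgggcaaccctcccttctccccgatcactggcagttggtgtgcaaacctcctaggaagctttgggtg
Ltf: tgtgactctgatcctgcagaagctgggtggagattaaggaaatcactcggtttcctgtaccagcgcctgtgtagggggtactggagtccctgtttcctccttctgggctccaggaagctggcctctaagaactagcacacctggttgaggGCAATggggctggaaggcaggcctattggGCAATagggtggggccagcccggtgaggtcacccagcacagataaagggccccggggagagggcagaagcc

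AGGAAGT stood in the promoters of Prtn3, Ctsg, Mpo, Elane and Chil3, which is 5 of the 9 genes, and in 7.69% of all 32851 promoters of this length. In Prtn3 it began 94 bases before the start and in Elane 84 bases before it. These neighbouring genes on chromosome 10 were also the 2 of the 9 that held AACGG, which 14.5% of all promoters hold. GCAAT stood in Mpo, Elane, Ngp, Camp and Ltf and in 23.1% of all promoters. No match overlapped another. The motifs were picked with the sequences in view, and a match describes letters, not binding. Within these windows Ms4a3 held none of the 3.

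Ms4a3 encodes a membrane protein of the MS4A family that marks committed granulocyte and monocyte progenitors in mouse marrow. Its signal was 444.9, 308.8 and 226.3 in Lip-C OBX arrays and 437.4, 436.9 and 566.2 in Lip-C sham arrays, against 88.3, 116.7 and 122.2 in Lip-O OBX arrays and 106.3, 172.3 and 134.2 in Lip-O sham arrays. The lowest of the 6 Lip-C arrays lay above the highest of the 6 Lip-O arrays, as was so for 0.477% of all genes. The group means were 327 ± 110 in Lip-C OBX and 480 ± 74.5 in Lip-C sham arrays, against 109 ± 18.2 in Lip-O OBX and 138 ± 33.1 in Lip-O sham arrays (SD, n = 3). Lip-C sham was thus the highest group and Lip-O OBX the lowest, but the OBX and sham arrays overlapped within each liposome. On the log2(signal + 16) scale, used for every difference below, Lip-C minus Lip-O was 1.42 ± 0.23 in OBX mice and 1.70 ± 0.23 in sham mice (± SE from a model of all 13628 genes), and without Lip-O sham replicate 1 the sham difference was 1.55. The tissue is bulk, so more progenitor-derived cells and more RNA per cell cannot be told apart, here or for the genes below.

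Myeloperoxidase makes hypochlorous acid in the phagosome and is the most abundant protein of the primary granule. Mpo had signals of 2408.4, 1788.3 and 1142.6 in Lip-C OBX arrays and 979.2, 1255.1 and 2374.4 in Lip-C sham arrays, against 260.1, 405.3 and 201.6 in Lip-O OBX arrays and 98.1, 599.8 and 396.3 in Lip-O sham arrays. All 6 Lip-C arrays exceeded all 6 Lip-O arrays. Averaged over surgery the difference was 2.39 ± 0.40, the largest of the 9 genes, and the ratio of the mean signals over 6 arrays each was 5.07. Without Lip-O sham replicate 1, where Mpo was at its lowest, the difference in sham mice was 1.52 in place of 2.24.

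The 3 serine proteases of the primary granule were higher in Lip-C arrays as well. Prtn3, which encodes proteinase 3, had 1437.5, 982.8 and 731.9 in Lip-C OBX arrays and 825.1, 910.1 and 1553.6 in Lip-C sham arrays, against 319.1, 376.3 and 258.4 in Lip-O OBX arrays and 190.3, 496.1 and 307.7 in Lip-O sham arrays. Ctsg, which encodes cathepsin G, had 569.7, 337.9 and 233.4 in Lip-C OBX arrays and 403.3, 429.4 and 748.9 in Lip-C sham arrays, against 147.3, 116.2 and 74.1 in Lip-O OBX arrays and 28.5, 183.0 and 116.8 in Lip-O sham arrays. Both genes kept the 6 Lip-C arrays above the 6 Lip-O arrays, with differences averaged over surgery of 1.68 ± 0.25 for Prtn3 and 1.94 ± 0.36 for Ctsg. Elane, which encodes neutrophil elastase, had 1065.1, 911.2 and 345.7 in Lip-C OBX arrays and 236.7, 383.4 and 823.1 in Lip-C sham arrays, against 144.1, 228.7 and 99.6 in Lip-O OBX arrays and 41.6, 265.0 and 195.7 in Lip-O sham arrays. Here the groups were apart after OBX but overlapped after sham surgery, where Lip-C replicate 1 lay below Lip-O replicate 2. Elane differed by 2.11 ± 0.65 in OBX mice and 1.54 ± 0.65 in sham mice, or 0.85 in sham mice without Lip-O sham replicate 1.

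**Figure D1:**
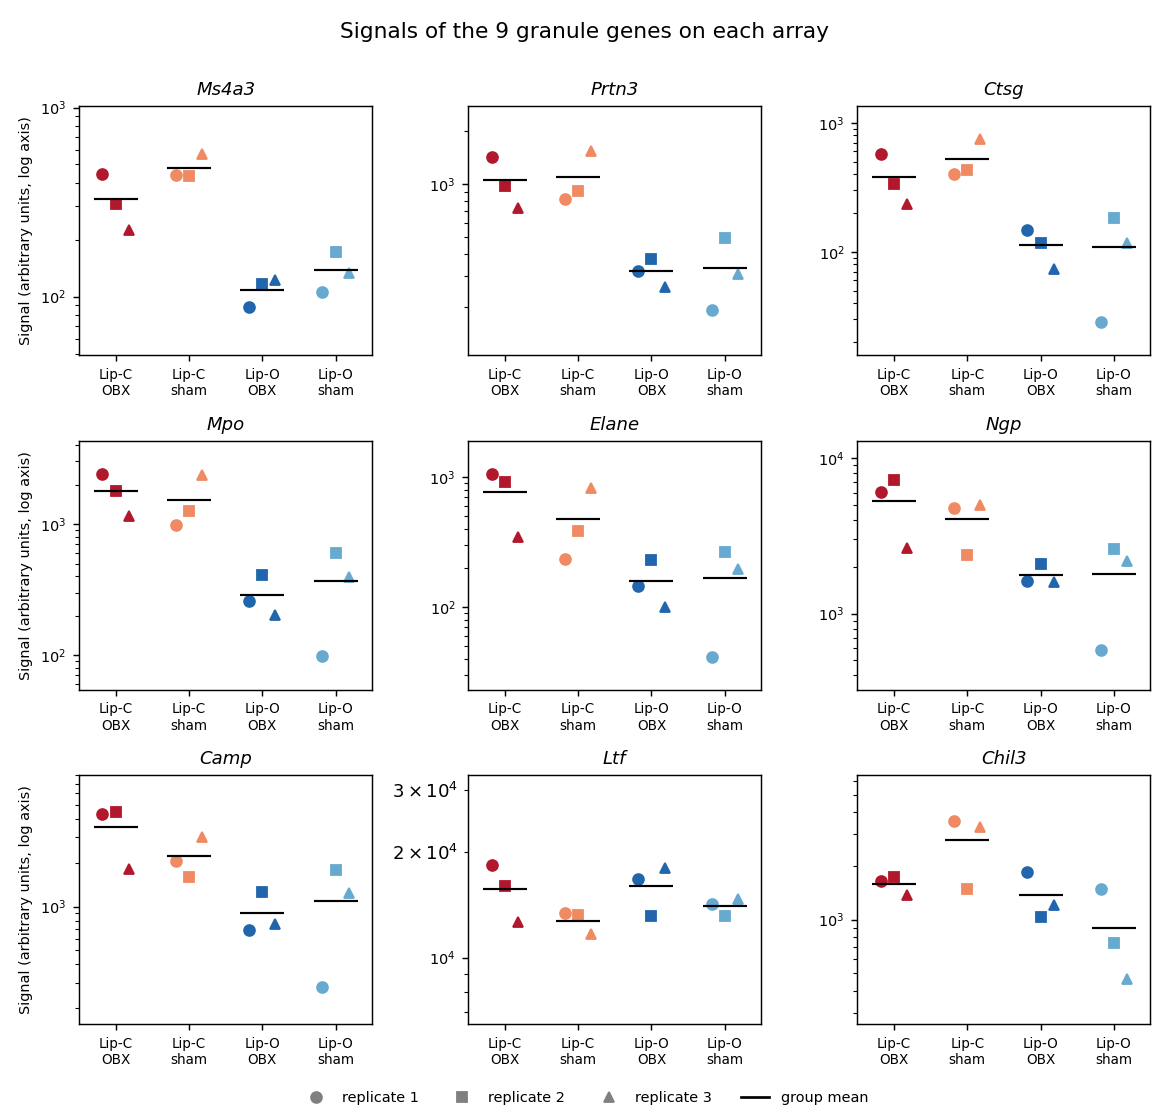
Signal of each gene on each array (arbitrary units, log axis that differs between panels) in the 4 groups, with a horizontal line at the mean of the 3 arrays. The 6 Lip-C arrays lie above the 6 Lip-O arrays for Ms4a3, Prtn3, Ctsg and Mpo, and the Ltf arrays of the 2 liposomes overlap in both surgeries.

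Among the secondary granule genes, both peptide genes were higher in Lip-C means and lactoferrin was not. Ngp, a cystatin-related protein of neutrophil granules, had 6023.2, 7199.7 and 2631.4 in Lip-C OBX arrays and 4763.1, 2364.1 and 4988.6 in Lip-C sham arrays, against 1612.4, 2098.0 and 1603.9 in Lip-O OBX arrays and 582.8, 2615.0 and 2178.2 in Lip-O sham arrays. Camp, the gene of the cathelicidin antimicrobial peptide, had 4318.9, 4449.8 and 1805.7 in Lip-C OBX arrays and 2072.5, 1598.0 and 3015.3 in Lip-C sham arrays, against 695.6, 1266.7 and 762.7 in Lip-O OBX arrays and 279.8, 1788.2 and 1232.5 in Lip-O sham arrays. For both genes the OBX groups did not overlap and the sham groups did. Ngp differed by 1.46 ± 0.55 in OBX mice and 1.35 ± 0.55 in sham mice, and Camp by 1.88 ± 0.60 and 1.31 ± 0.60 in the same order. Without Lip-O sham replicate 1 the sham differences were 0.68 for Ngp and 0.53 for Camp, a fall of over 1.5 times by leaving out that array.

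Ltf, the lactoferrin gene, had the smallest differences of the 9. Its signal was 18324.2, 15971.1 and 12632.9 in Lip-C OBX arrays and 13356.6, 13227.2 and 11649.3 in Lip-C sham arrays, against 16727.5, 13088.6 and 17982.8 in Lip-O OBX arrays and 14216.2, 13134.0 and 14662.7 in Lip-O sham arrays. The groups overlapped in both surgeries, and the difference was -0.03 ± 0.15 in OBX mice and -0.14 ± 0.15 in sham mice, with 95% intervals of -0.36 to 0.30 and -0.47 to 0.19. Ltf did not follow the other secondary granule genes from array to array either. Over the 12 arrays its correlation with Ms4a3, the primary granule genes, Ngp and Camp ran from -0.27 to -0.01, whereas Ngp and Camp correlated with each other at 0.98.

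Chil3 encodes Ym1, a secreted chitinase-like lectin found in neutrophil precursors, lung macrophages and alternatively activated macrophages of mice. Its signal was 1641.7, 1738.8 and 1374.5 in Lip-C OBX arrays and 3578.3, 1486.5 and 3302.4 in Lip-C sham arrays, against 1855.6, 1030.6 and 1209.0 in Lip-O OBX arrays and 1488.5, 741.0 and 467.0 in Lip-O sham arrays. Lip-C minus Lip-O was 0.25 ± 0.42 in OBX mice and 1.68 ± 0.42 in sham mice, and the groups overlapped in both, in sham mice through Lip-C replicate 2 and Lip-O replicate 1. The gap between these differences is the interaction tested below. The probe set shared with Chil4 read 1671.4, 3859.2 and 1644.9 in Lip-C OBX arrays and 2399.9, 1245.2 and 2163.6 in Lip-C sham arrays, against 2479.1, 8665.6 and 2525.0 in Lip-O OBX arrays and 1603.7, 8330.6 and 603.8 in Lip-O sham arrays. It was highest in replicate 2 of both Lip-O groups, which is not the pattern of the Chil3 probe set. Chil4's own probe set averaged 1013 ± 864 in Lip-C OBX, 168 ± 121 in Lip-C sham, 2876 ± 2626 in Lip-O OBX and 2293 ± 3405 in Lip-O sham arrays, and its difference between liposomes averaged over surgery did not pass (-1.97 ± 0.79, limma adjusted p = 0.238).

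Counted at an adjusted p under 0.05, 1 of the 9 genes was higher under Lip-C in OBX mice (Ms4a3), where 0.125% of all genes were, and 3 were higher in sham mice (Ms4a3, Prtn3 and Ctsg), where 1.28% were. Averaged over surgery 4 were higher (Ms4a3, Prtn3, Ctsg and Mpo), beside 0.77% of all genes, and none was lower in any of these comparisons. Arrays did not overlap for 7 genes in OBX mice, all but Ltf and Chil3, beside 8.22% of all genes, and for 4 in sham mice, beside 16.2%. The median difference of the 9 genes was 1.58 in OBX mice and 1.68 in sham mice, against medians of all genes of 0.01 and 0.00. The counts moved with single arrays: none of the 9 passed in sham mice without Lip-C sham replicate 3 or Lip-O sham replicate 3, and 1 passed without Lip-C OBX replicate 2, Lip-C sham replicates 1 or 2, or Lip-O sham replicate 2. In OBX mice none passed without Lip-C OBX replicates 1 or 2, Lip-C sham replicates 1 or 2, any Lip-O OBX array or Lip-O sham replicate 3, and 2 passed without Lip-O sham replicate 1. Averaged over surgery 2 passed without Lip-C OBX replicates 1 or 2, Lip-C sham replicate 3 or Lip-O OBX replicate 1. These counts and medians describe genes picked on this comparison, and nothing is read from them.

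**Figure D2:**
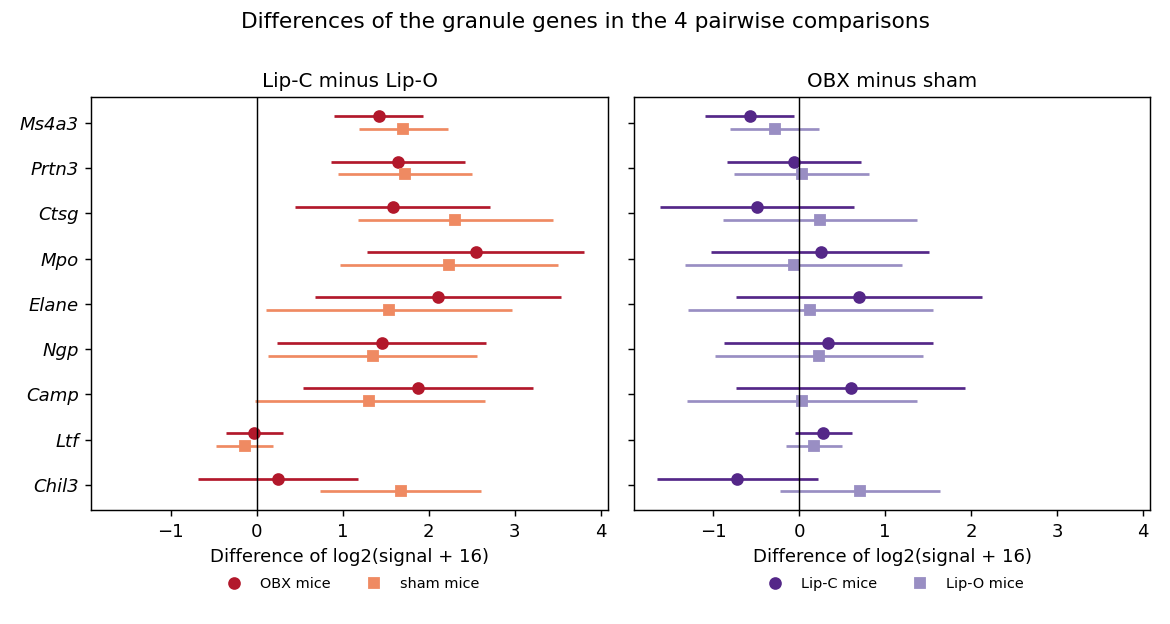
Differences of log2(signal + 16) for each gene, as points with 95% intervals from the model, for Lip-C minus Lip-O in OBX and sham mice (left) and OBX minus sham in Lip-C and Lip-O mice (right). On the left the points of 7 genes lie at 1.31 or above in both surgeries while those of Ltf lie near 0, and on the right the intervals of all genes but Ms4a3 in Lip-C mice include 0.

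OBX against sham surgery was not used to pick the genes, although it is measured on the same arrays. None of the 9 genes passed the test for OBX in Lip-C mice, where 19.2% of all genes did, or in Lip-O mice, where 19.6% did. None passed averaged over liposomes, where 32.7% did. The OBX and sham arrays overlapped for all 9 genes, whereas they did not for 40.2% of all genes in Lip-C mice and 37.7% in Lip-O mice. At an unadjusted p under 0.05 the limma count was 1 gene in Lip-C mice (Ms4a3), 0 in Lip-O mice and 1 averaged over liposomes (Ms4a3). The median difference of the 9 genes was 0.25 in Lip-C mice and 0.13 in Lip-O mice, beside 0.04 and 0.05 over all genes.

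Ms4a3 had the smallest p of the 9 for OBX in Lip-C mice. It differed by -0.57 ± 0.23 in Lip-C mice (limma adjusted p = 0.107, 95% interval -1.09 to -0.06) and by -0.28 ± 0.23 in Lip-O mice (limma adjusted p = 0.425, 95% interval -0.80 to 0.23). Leaving out 1 array moved these by over 1.5 times, to -0.35 in Lip-C mice when Lip-C OBX replicate 3 was left out. In Lip-O mice the value was -0.16 when Lip-O OBX replicate 1 was left out, and leaving out Lip-O sham replicate 1 or 2 gave -0.44 and -0.13. The averaged difference was -0.43 ± 0.16 (limma adjusted p = 0.0683), and the arrays overlapped within both liposome groups. Over the fits that left out 1 array each it ran from -0.55 to -0.32, and it passed without Lip-C OBX replicate 1 (limma adjusted p = 0.0212) and without Lip-O sham replicate 1 (limma adjusted p = 0.0465). Since Ms4a3 was picked for high values in Lip-C arrays, including the Lip-C sham arrays, these differences share arrays with the choice.

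For the primary granule genes the OBX differences were small beside wide intervals. Prtn3 differed by -0.06 ± 0.35 in Lip-C mice and 0.03 ± 0.35 in Lip-O mice, and Mpo by 0.25 ± 0.57 and -0.06 ± 0.57 in the same order. Elane differed by 0.70 ± 0.65 in Lip-C mice (95% interval -0.73 to 2.13), where its groups overlapped, and by 0.13 ± 0.65 in Lip-O mice. Ctsg differed by -0.49 ± 0.51 in Lip-C mice and 0.24 ± 0.51 in Lip-O mice. In Lip-O mice the 95% interval of Elane was -1.29 to 1.56, so changes of this size in either direction could not be told from none. Without Lip-O sham replicate 1 the differences in Lip-O mice were -0.30 for Prtn3, -0.38 for Ctsg, -0.78 for Mpo and -0.56 for Elane, and without Lip-C OBX replicate 3 Elane differed by 1.19 in Lip-C mice; none of these passed.

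Among the secondary granule genes, Camp differed by 0.60 ± 0.60 in Lip-C mice and 0.03 ± 0.60 in Lip-O mice, and Ngp by 0.34 ± 0.55 and 0.23 ± 0.55 in the same order. The same array moved them too, since without Lip-O sham replicate 1 the differences in Lip-O mice were -0.75 for Camp and -0.44 for Ngp, and without Lip-C OBX replicate 3 those in Lip-C mice were 1.02 for Camp and 0.78 for Ngp, none past the test. Ltf had the narrowest intervals of the 9, with 0.28 ± 0.15 in Lip-C mice (limma adjusted p = 0.201) and 0.17 ± 0.15 in Lip-O mice (limma adjusted p = 0.445). Averaged over liposomes Ltf differed by 0.23 ± 0.10 (limma adjusted p = 0.120), and it passed without Lip-C OBX replicate 3 (limma adjusted p = 0.0323) and without Lip-O OBX replicate 2 (limma adjusted p = 0.0479).

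Chil3 had differences of opposite sign after OBX. It differed by -0.72 ± 0.42 in Lip-C mice (limma adjusted p = 0.251) and by 0.71 ± 0.42 in Lip-O mice (limma adjusted p = 0.267). The difference in Lip-C mice was -1.12 when Lip-C sham replicate 2 was left out. In Lip-O mice it was 0.47 when Lip-O OBX replicate 1 was left out, and leaving out Lip-O sham replicate 3 or 1 gave 0.33 and 1.15 (limma adjusted p = 0.0703 for 1.15). It kept its sign in both liposome groups without any 1 array. The interaction was -1.42 ± 0.60 (95% interval -2.74 to -0.10), which did not pass over all genes (limma adjusted p = 0.251). No gene of the 13628 passed for the interaction (0%), and at an unadjusted p under 0.05 Chil3 was the 1 of the 9 genes counted by limma. The other 8 interactions ran from -0.73 ± 0.72 for Ctsg to 0.57 ± 0.91 for Elane. Whether Lip-C acted alike on these genes in both surgeries is not shown by these intervals.

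The primary granule genes moved together from array to array. Over the 12 arrays Prtn3, Ctsg, Mpo and Elane correlated pairwise at 0.90 to 0.98, and after the mean of each group was removed still at 0.91 to 0.97. With Ngp and Camp they correlated at 0.88 to 0.96 over the arrays and at 0.75 to 0.94 over deviations from the group means. The shared rise and fall is visible within groups: Lip-C sham replicate 3 was the highest of its group for Ms4a3, the 4 primary granule genes, Ngp and Camp, and Lip-O sham replicate 2 was the highest of its group for the same 7 genes. The 12 points of such a correlation share the arrays' dissection, RNA and scaling, so it describes these samples.

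**Figure D3:**
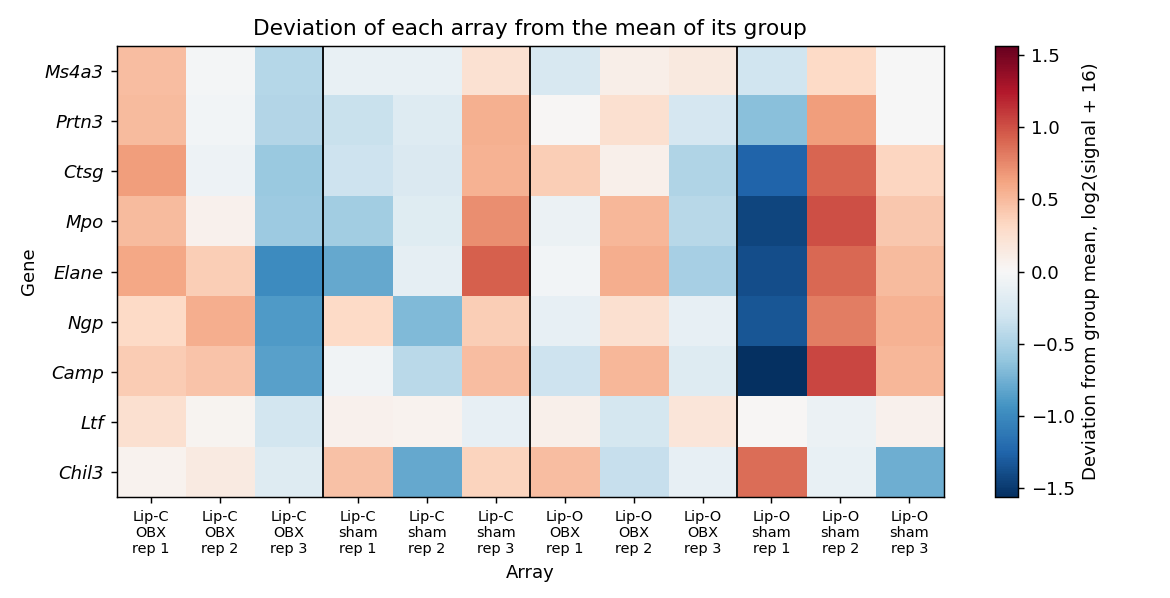
Deviation of each array from the mean of its group, in log2(signal + 16), for the 9 genes (rows) on the 12 arrays (columns), with red above and blue below the group mean. The 7 upper rows share their colours on most arrays, most plainly in Lip-O sham replicates 1 and 2, and Ltf and Chil3 do not follow them.

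Ms4a3 followed the primary granule genes over a wider range of correlations. Its correlation with the primary granule genes was 0.78 to 0.94 over the 12 arrays and 0.70 to 0.83 over deviations from the group means, a description with no test of the difference. Ranked by correlation with Ms4a3 over the 12 arrays among the 13627 other genes, the 10 nearest were Prtn3 (0.938), Shmt2 (0.917), Ctsg (0.908), Adgrg3 (0.906), Mbtps1 (0.897), Mycbp2 (0.897), Mpo (0.896), Rbsn (0.891), Pitpnc1 (0.882) and Fgf21 (0.882). Elane ranked 62 (0.783), Camp 66, Ngp 77, Chil3 644 and Ltf 10129. Over deviations from the group means, which remove the difference between groups, 0 of these 10 genes stayed among the 10 nearest and Prtn3 ranked 37 (0.827). The 5 genes nearest to Elane over the arrays were Itga8 (0.973), Mpo (0.964), Camp (0.963), Prtn3 (0.930) and Ngp (0.918), 4 of them granule genes. Over deviations from the group means the 5 nearest held 1 granule gene, Mpo (0.972), and Prtn3 ranked 6, Camp 14, Ctsg 15 and Ngp 170.

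Other granule genes and markers of mature neutrophils were counted beside the 1.59% of all genes that passed for Lip-C averaged over surgery in either direction. Of 20 other granule genes tested, 1 was higher in Lip-C mice averaged over surgery and 1 lower, with a median of 0.03. The higher was Cst7, the leukocyte cystatin F (1.06 ± 0.20, limma adjusted p = 0.0304). The lower was Mmp9, gelatinase B (-1.12 ± 0.22, limma adjusted p = 0.0374). Cst7 averaged 90.5 in Lip-C OBX, 55.0 in Lip-C sham, 38.6 in Lip-O OBX and 15.1 in Lip-O sham arrays. With the filter at 65.3 to 79.3, Cst7 passed it only through Lip-C arrays, so its call supports nothing. Of 14 neutrophil markers tested, 1 was higher (Padi4, the enzyme that citrullinates histones, 0.78 ± 0.13, limma adjusted p = 0.0189), with a median of 0.27. The Padi4 means of both Lip-O groups lay below this filter level and those of both Lip-C groups above it. Its call is therefore read with caution. The abundant calgranulin genes did not pass, with S100a8 at 0.71 ± 0.22 (limma adjusted p = 0.142) and S100a9 at 0.82 ± 0.28 (limma adjusted p = 0.169). The summed signal of the neutrophil markers was 19387 to 33086 in Lip-C OBX and 16748 to 33702 in Lip-C sham arrays, against 13535 to 19673 in Lip-O OBX and 12773 to 35542 in Lip-O sham arrays, and the 2 markers that failed the filter were Cxcr2 and Stfa3. These sums overlapped between liposomes in both surgeries. The lists were drawn up with earlier results of these data known.

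Of 23 granulocyte transcription and growth factor genes tested, 0 were higher under Lip-C and 1 was lower, with a median of 0.08. It was Cxcr4, the chemokine receptor that holds granulocytes in the marrow (-0.42 ± 0.08, limma adjusted p = 0.0355). Gfi1, Hoxa9, Flt3 and Il3ra failed the filter, so the counts do not cover them. Among 13 inhibitors of granule proteases and oxidase subunits, 1 was higher, Wfdc21, a secreted protein of the whey acidic family (1.09 ± 0.21, limma adjusted p = 0.0374). None of the 7 Ms4a family members tested beside Ms4a3 passed for Lip-C, among them Ms4a7 of macrophages (-0.22 ± 0.13, limma adjusted p = 0.434) and Ms4a6b (-0.18 ± 0.16, limma adjusted p = 0.619).

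Some of these neighbours passed the test for OBX, in shares read beside the 19.2% of all genes in Lip-C mice and 19.6% in Lip-O mice. In Lip-C mice 8 of the 23 transcription and growth factor genes were higher after OBX, led by Sox4 (0.58 ± 0.12, limma adjusted p = 0.0112), Irf8 (0.88 ± 0.20, limma adjusted p = 0.0169), Klf4 (0.79 ± 0.19, limma adjusted p = 0.0190) and Cd34 (0.93 ± 0.22, limma adjusted p = 0.0205), factors and a surface protein that cells of several lineages share. In Lip-O mice 2 of the 23 were higher, fewer than the share of all genes, Runx1 (0.52 ± 0.13, limma adjusted p = 0.0195) and Cxcr4 (0.46 ± 0.11, limma adjusted p = 0.0201). Ms4a7 was higher after OBX in Lip-C mice (1.12 ± 0.18, limma adjusted p = 0.00550) and in Lip-O mice (0.95 ± 0.18, limma adjusted p = 0.00663). Of 13 inhibitors and oxidase genes 3 were higher after OBX in Lip-O mice, near the share of all genes. They were the broad protease inhibitor A2m (1.22 ± 0.32, limma adjusted p = 0.0258) and the elastase inhibitors Slpi (1.05 ± 0.28, limma adjusted p = 0.0275) and Serpinb1a (1.05 ± 0.33, limma adjusted p = 0.0495). In Lip-C mice 1 of the 13 was higher, A2m. It averaged 160 ± 54.0 and 200 ± 100 in Lip-C and Lip-O OBX arrays, against 59.8 ± 3.02 and 74.2 ± 27.3 after sham surgery. These sham means lay below or near the filter level of 65.3 to 79.3, so the A2m calls are read with caution. Of the 20 other granule genes 1 was higher in Lip-O mice, Slpi, and 0 in Lip-C mice. Of the 14 neutrophil markers 0 passed for OBX in either. Both lists were below the share of all genes.

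Markers of other marrow and blood cells were read in the same way, beside the 1.59% of all genes. The 7 platelet and megakaryocyte markers all had positive differences averaged over surgery, with a median of 0.61 and 1 past the test, the platelet glycoprotein Gp9 (1.08 ± 0.21, limma adjusted p = 0.0380). Gp9 averaged 92.1 ± 11.8 in Lip-C OBX, 36.7 ± 19.6 in Lip-C sham, 27.9 ± 12.5 in Lip-O OBX and 12.7 ± 6.11 in Lip-O sham arrays. With the filter at 65.3 to 79.3, Gp9 passed it only through the group where it was high, so its call supports nothing. The summed signal of the platelet markers was 3962 to 6332 in Lip-C OBX and 3669 to 3893 in Lip-C sham arrays. In Lip-O arrays it was 1989 to 3611 after OBX and 1456 to 2983 after sham surgery. The lowest Lip-C sum thus lay only just above the highest Lip-O sum. Ppbp (group means of 717 to 2456) and Pf4 (726 to 1658) made up most of the sums. Neither passed (limma adjusted p = 0.0941 and 0.0656). How often such sums stay apart over all genes was not tested, so nothing is read from the gap. The 10 erythroid markers had positive differences with a median of 0.22 and 0 past the limma test, and their sums overlapped (8131 to 12122 in Lip-C OBX and 7187 to 8654 in Lip-C sham arrays, against 5817 to 9990 in Lip-O OBX and 5889 to 8535 in Lip-O sham arrays). Most of these sums came from Car2 (group means of 2697 to 3498) and Add2 (2066 to 3372). For OBX averaged over liposomes, 9 of the 10 had positive differences, with a median of 0.86 over the list. Past the test 3 were higher (Trim10, Alas2 and Klf1) and 1 was lower, beside 32.7% of all genes in either direction. That 1 was Add2 (-0.50 ± 0.06, limma adjusted p = 0.000562). Trim10 and Klf1 lay near the filter level in sham arrays, with group means of 69.0 to 91.4. The sums thus say little of the other erythroid markers. The part of platelet or marrow RNA in the granule gene signal was not tested. Of 8 monocyte markers 1 was higher, F13a1, a coagulation factor subunit of monocytes and platelets (0.97 ± 0.15, limma adjusted p = 0.0125). Of 5 T and natural killer cell markers 1 was higher, Nkg7 (1.22 ± 0.22, limma adjusted p = 0.0279), with a median of -0.19. Nkg7 averaged 132 ± 32.1 and 110 ± 59.6 in Lip-C OBX and sham arrays, against 32.9 ± 12.1 and 50.8 ± 11.9 in Lip-O. It too passed the filter only through Lip-C arrays, so its call supports nothing. Of 7 B lineage markers and of 3 eosinophil, basophil and mast cell markers 0 passed.

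Bone and macrophage markers differed in the other direction. Of 11 bone genes 3 were lower under Lip-C averaged over surgery, beside 1.59% of all genes in either direction, with a median of -0.79. They were Ibsp of the bone matrix (-1.31 ± 0.15, limma adjusted p = 0.00338), Ctsk of osteoclasts (-1.63 ± 0.26, limma adjusted p = 0.0177) and Acp5 of osteoclasts (-2.19 ± 0.38, limma adjusted p = 0.0246). In sham mice the summed signal of the bone list was 12577 to 17716 in Lip-C arrays, against 34013 to 52004 in Lip-O arrays. After OBX it was 23390 to 45351 in Lip-C arrays, against 20533 to 46301 in Lip-O arrays. All 12 macrophage markers tested had negative differences averaged over surgery, with a median of -0.24 and 0 past the limma test. In sham mice alone 2 of the 12 were lower, beside 2.1% of all genes in either direction, the growth factor receptor Csf1r (-0.83 ± 0.18, limma adjusted p = 0.0426) and Aif1 (-0.90 ± 0.20, limma adjusted p = 0.0470). Whether the amount of bone in the dissection or the number of macrophages moved the granule genes was not tested.

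**Figure D4:**
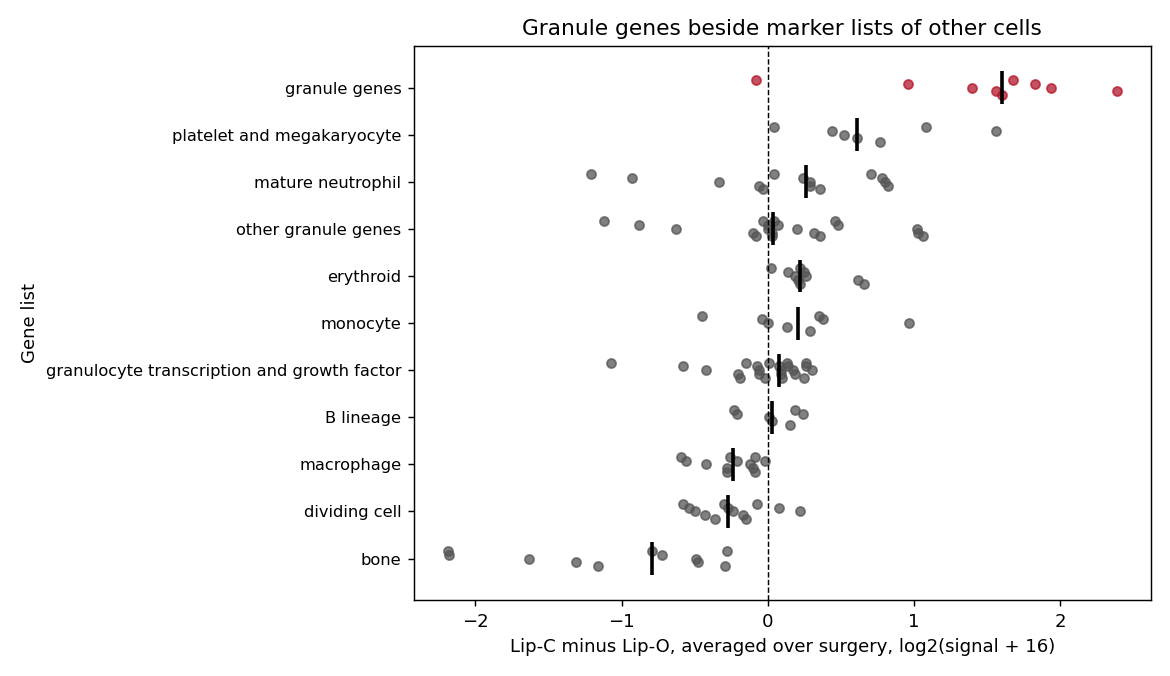
Differences of log2(signal + 16) for Lip-C minus Lip-O averaged over surgery, with a point for each tested gene and a black bar at the median of its list. The granule genes have a median of 1.60, the platelet and megakaryocyte markers 0.61, the mature neutrophil markers 0.27 and the bone genes -0.79.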

How the data were processed

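Signal was measured on 12 one-colour Affymetrix arrays, 3 in each of 4 groups taken from the titles. The deposited values are linear intensity per probe set, scaled by the authors so that each array has a mean of 500 after trimming 2% at each end, as the values show. The labels, headers and notes at hand do not name how probes were summarised. Of 45101 probe sets, 64 controls were left out, and 28986 passed the filter, which asked for 3 or more arrays above the array's 40th percentile. The deposited intensity was turned into log2(signal + 16), which understates the change of dim genes. Of the probe sets, 34945 carried 1 gene, 932 several and 9160 none, and gene identifiers of 34741 were found in the reference table. The probe set with the highest mean stood for a gene. The means of the 4 groups were fitted with limma 3.58.1 in R 4.3.3 for 7 comparisons, two-sided and adjusted by Benjamini-Hochberg over 13628 genes. The median standard error of a difference between 2 groups was 0.124 over all genes, whereas those of the 9 granule genes ran from 0.15 for Ltf to 0.65 for Elane. The number of arrays limits the precision. The model was tested on simulated data. The members and gene lists were chosen with earlier results of these data known. All 9 members are named. From a list the text names at most 4 genes past the test by smallest p, or at most 2 of the highest signal, beside defining markers of other cells. Alternatives were other pseudocounts, filters, normalization, probe set choice, moderation, a replicate block and leaving out arrays.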

Additional observations from a re-analysis of the deposited data

How the results depend on the processing

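The results concern how many of the 9 granule genes passed in each comparison and each gene's difference. No difference that passed changed sign under any alternative run. For Lip-C in sham mice 3 genes passed as reported, 1 with no filter, 1 with the unmoderated test, and 0 to 2 without 1 array. For Lip-C in OBX mice 1 passed as reported, 0 with no filter, 0 with the unmoderated test, and 0 to 2 without 1 array. For Lip-C averaged over surgery 4 passed as reported, 2 with the unmoderated test, and 2 to 4 without 1 array. For OBX averaged over liposomes 0 passed as reported, 1 with quantile normalization (Ms4a3, limma adjusted p = 0.0478), and 0 to 1 without 1 array, where Ms4a3 or Ltf passed. With no filter more genes are tested, and without an array fewer samples are. For the other changes the cause was not tested. With the replicate number as a block, 0 genes passed for Lip-C in OBX mice, and no other count of the 9 genes moved by more than 1.5 times. Replicate numbers were not treated as pairs: of 18 pairs of groups and numbers, 11 correlated above 0.1 in their deviations from the group means, over a range of -0.0285 to 0.327, and 9 of 12 arrays correlated best with an array of their own number. Ctsg and Elane could not be tested with the filter applied on all 12 arrays. Wide intervals for Mpo, Elane, Ngp and Camp limit what the OBX comparisons can show.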
